A study of Mus musculus with 34 samples.

Results

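Absorption of iron and calcium in the proximal small intestine rests on a short series of proteins. The 9 genes described here encode proteins of these routes, of iron storage or of iron uptake from the blood side. Cybrd1, Slc11a2, Slc40a1, Heph, Tfrc and Fth1 handle iron, and Trpv6, S100g and Atp2b1 handle calcium. They were chosen by name for this function, and for each the mean H3K4me3 signal within 1000 bp of the 5′ end of the gene was taken (GENCODE M21, mm10), so that they are 9 of 21938 protein-coding promoters. Because some of these genes have several annotated transcription starts, the same window was also placed at every start, and the start with the highest mean over all libraries is given beside the 5′ end.

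H3K4me3, the trimethylated form of lysine 4 on histone H3 that marks promoters in use, was profiled by CUT&RUN, in which an antibody to the mark (from Millipore) brings protein A fused to micrococcal nuclease to chromatin and the released fragments are sequenced. The cells were villi scraped from small intestine of normal appearance from 2 wild-type C57BL/6J mice and 2 C57BL/6J ApcMin/+ mice, which carry 1 mutant allele of Apc in every cell and form intestinal tumours. The labels give an age of 5 weeks and the methods 6 weeks, and the labels give no treatment. Scraped villi hold several cell types, so fewer cells of a type and less of the mark per cell cannot be told apart. The H3K9me3, total H3, no-antibody, RNA-seq and 12-week libraries were not analysed here.

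Iron enters the enterocyte after reduction at the brush border by Cybrd1, crosses that membrane through Slc11a2 (DMT1), is stored in ferritin, of which Fth1 is the heavy chain, and leaves at the base through Slc40a1 (ferroportin) after which Heph (hephaestin) oxidizes it. Calcium follows a parallel route, entering through the channel Trpv6, crossing the cytoplasm bound to S100g (calbindin-D9k) and leaving through the pump Atp2b1 (PMCA1). In the duodenum the vitamin D receptor is known to raise Trpv6 and S100g, and the hypoxia-inducible factor encoded by Epas1 is known to raise Cybrd1, Slc11a2 and Slc40a1 in iron deficiency, while Fth1 and Tfrc are governed largely at the level of their messenger RNAs.

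At the 5′ end, 4 of the 9 genes reached a mean signal of 2, the level used to admit a promoter to the test, namely Tfrc, Heph, Slc40a1 and Atp2b1. The background was 45.3% of all 21938 promoters. At the start with the highest signal, Fth1 and Slc11a2 joined them, giving 6 of 9 where 49.2% of all genes reached 2. Cybrd1, Trpv6 and S100g stayed under 2 at every annotated start, so that the step that reduces iron, the channel that admits calcium and the protein that carries calcium had little H3K4me3 in any library, and the windows of both iron export genes, the iron importer and the calcium pump reached 2, those of Heph and Slc11a2 with the start of another gene inside them. None of the genes that could be tested differed between the groups at an adjusted p of 0.05.

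Among the 6 genes with a promoter sequence, marked and unmarked starts differed in CpG content, with Cybrd1 as an exception. RefSeq promoter windows (GRCm38.p6, the sequence of mm10), which run from 250 bases before a start to 50 after it, were on hand for 6 of the 9 genes, in 9 windows. The stretches below are the upstream, non-exonic parts of these windows, except at the marked start of Fth1, where annotated exons cover the whole upstream part and 30 bases of it are shown. They were chosen to show the contrast between marked and unmarked starts, written 5′ to 3′ on the strand of the gene with each CpG in capitals. The first is the marked promoter of Tfrc (chr16:32608646-32608895, plus strand), with 25 CpG in 250 bases. It is followed by 30 bases shortly before the marked start of Fth1 (chr19:9982604-9982633, plus strand), with 5 CpG. These 30 bases were placed around a match to GGGCGG, which itself holds a CpG, so their CpG density is not that of the window. The whole window held 27 CpG. Next come the unmarked 5′ end of Fth1 (chr19:9980350-9980597, plus strand), with 3 CpG in 248 bases, and the unmarked promoters of Trpv6 (chr6:41636406-41636655, minus strand), with 1 CpG, S100g (chrX:162964600-162964849, minus strand), with 2 CpG, and Cybrd1 (chr2:71117804-71117922, plus strand), with 5 CpG in 119 bases. The whole window of Cybrd1, exonic part included, held 23 CpG.
Tfrc: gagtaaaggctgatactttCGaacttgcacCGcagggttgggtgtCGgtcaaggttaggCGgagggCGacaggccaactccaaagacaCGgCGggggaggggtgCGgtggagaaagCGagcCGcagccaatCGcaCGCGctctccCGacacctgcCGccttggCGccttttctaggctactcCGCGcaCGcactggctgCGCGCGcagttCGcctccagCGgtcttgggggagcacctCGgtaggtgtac
Fth1, marked start: caggaagaggCGgggCGgCGCGgccCGctg
Fth1, 5′ end: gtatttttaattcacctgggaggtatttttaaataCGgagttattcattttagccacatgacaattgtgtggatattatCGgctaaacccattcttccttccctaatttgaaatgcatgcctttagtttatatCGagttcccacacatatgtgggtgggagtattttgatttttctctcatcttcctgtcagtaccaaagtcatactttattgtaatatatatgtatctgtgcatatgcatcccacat
Trpv6: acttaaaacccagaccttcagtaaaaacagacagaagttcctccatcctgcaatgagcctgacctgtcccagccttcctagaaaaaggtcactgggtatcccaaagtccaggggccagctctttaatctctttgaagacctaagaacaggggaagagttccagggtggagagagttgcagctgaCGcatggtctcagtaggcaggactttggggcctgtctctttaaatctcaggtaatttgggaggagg
S100g: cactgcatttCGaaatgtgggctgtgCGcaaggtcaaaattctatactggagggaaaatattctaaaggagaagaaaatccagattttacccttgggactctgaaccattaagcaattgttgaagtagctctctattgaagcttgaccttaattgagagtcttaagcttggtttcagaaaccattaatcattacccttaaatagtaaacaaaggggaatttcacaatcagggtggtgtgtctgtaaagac
Cybrd1: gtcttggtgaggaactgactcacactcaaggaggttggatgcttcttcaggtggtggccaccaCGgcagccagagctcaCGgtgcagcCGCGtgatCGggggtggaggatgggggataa

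The CpG content of a window was expressed as CpG observed over expected, the number of CpG relative to that from the C and G content alone. Over all 32851 RefSeq windows, of which a gene can hold several, 74.8% of the 11765 with a ratio of at least 0.6 had a mean H3K4me3 signal of 2 or more, compared with 12.2% of the 21086 with a lower ratio. The ratio was 0.940 and 0.906 in the windows of Tfrc, 1.18 and 0.955 in those of Atp2b1 and 0.827 at the marked start of Fth1. It was 0.405 at the unmarked 5′ end of Fth1, 0.238 at S100g and 0.0506 at Trpv6. The 3 unmarked windows of low CpG and the 5 marked windows of high CpG therefore followed the pattern over all windows. Cybrd1 was the exception, with a ratio of 0.657 and a GC content of 68.3% but a mean signal of 1.08 in this window, so that it lay among the lower part of windows of its CpG content.

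**Figure D1:**
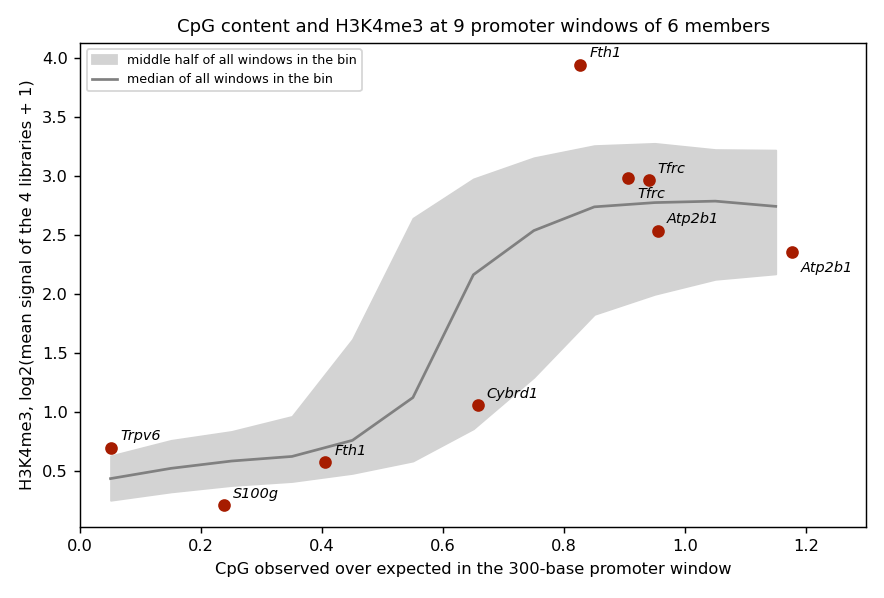
CpG observed over expected (x axis) against the mean H3K4me3 signal of the 4 libraries within 1000 bp of the start, as log2(signal + 1) (y axis), for the 9 RefSeq windows of 6 genes (points), with the median (line) and the interquartile range (band) of all 32851 windows in bins of the ratio. Trpv6, S100g and the 5′ end of Fth1 lie at low CpG and low signal, and Tfrc, Atp2b1 and the other start of Fth1 at high CpG and high signal. Cybrd1, at a ratio of 0.657, lies below the median of its bin but above its lower quartile.

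The same windows were searched on both strands for a few motifs, which describe letters and not binding. The core of the hypoxia response element (ACGTG or GCGTG) was present in 43.8% of all windows, among them those of Cybrd1, Tfrc and Atp2b1 and the marked start of Fth1. A GC box (GGGCGG) was present in 35.7% of all windows. Among them were those of Atp2b1 with 4 and 3 matches, that of Cybrd1 with 2 and the marked start of Fth1 with 3. Of the marked windows of Tfrc, 1 held 2 matches and the other 0. Both of these motifs hold a CpG, so their presence is tied to CpG content, and neither was found in the windows of Trpv6, S100g or the 5′ end of Fth1. A TATA box (TATAAA), found in 13.6% of all windows, was present in S100g and at the 5′ end of Fth1. The antioxidant response core (TGACNNNGC), found in 12.4% of all windows, was present in S100g and in 1 window of Atp2b1. No match to the vitamin D response element of the direct repeat type with a spacer of 3 bases lay in the 9 windows, and 0.0396% of all windows held one.

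The values of the brush border genes were low at their 5′ ends. At Cybrd1 (ENSMUSG00000027015.4, chr2:71117923-71142926, plus strand), which has 1 annotated start, wild-type replicate 1 had a signal of 1.36 and replicate 2 of 0.731, and the ApcMin/+ replicates had 1.35 and 1.19. These values rest on 3.88, 7.0, 10.0 and 13.0 fragments. The groups overlapped, and between 43.2% and 48.5% of all promoters were lower than Cybrd1 in each library, so that it stood near the middle of all promoters. It was nonetheless 2.26 to 6.75 times the background, the mean signal outside enriched regions and far from any 5′ end, and a region of 600 bp over the 5′ end passed 5 times the genome mean. That region was lost at 10 times the genome mean or with gaps of up to 200 bp joined in place of 500 bp.

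At Slc11a2 (ENSMUSG00000023030.16, chr15:100387898-100425072, minus strand), the iron importer, the 5′ end had a signal of 0.269 and 0.569 in wild-type and 1.45 and 0.704 in ApcMin/+ mice, replicate 1 before replicate 2 here and in what follows. Its mark lay inside the gene, at the start of the transcript Slc11a2-201, 2017 bp downstream, where the signal was 2.15 and 2.43 in wild-type and 10.7 and 4.14 in ApcMin/+ mice, from 6.16, 23.3, 79.1 and 45.3 fragments. Both ApcMin/+ libraries lay above both wild-type libraries at either start, but at the 5′ end wild-type replicate 1 rests on 0.771 fragments, and its limit for 3 fragments, 1.05, exceeds the 0.704 of ApcMin/+ replicate 2. The 5′ end belongs to Slc11a2-202, and the gene is known to use alternative first exons. The gene Gm5475 begins 908 bp away on the other strand, so the signal in that window cannot be assigned to Slc11a2 alone. The enriched region there was 3100 bp long and began 1672 bp downstream of the 5′ end, and with the stricter threshold of 10 times the genome mean it was 1200 bp long.

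Storage was the step with the most H3K4me3. Fth1 (ENSMUSG00000024661.7, chr19:9980598-9985098, plus strand) had 0 and 0.638 at its 5′ end in wild-type and 0.572 and 0.769 in ApcMin/+ mice. A count of 0 in wild-type replicate 1 allows a signal of up to 3 fragments, which in this library is 1.05, so it could not show a low level. At the start with the highest signal, 2517 bp downstream, the values were 11.4 and 8.34 in wild-type and 32.6 and 9.63 in ApcMin/+ mice, from 32.7, 79.8, 241 and 105 fragments. Between 98.7% and 99.9% of all promoters were lower in each library, but those were taken at their 5′ ends and not at their highest starts. The 5′ end is that of the transcript Fth1-203, whereas Fth1-201 starts 2048 bp downstream with a signal of 11.1, 7.01, 30.6 and 8.74 in the same order, so the unmarked window is that of the outermost annotated start. Fth1 and Slc11a2 were 2 of 866 such genes, 7.21% of those unmarked at the 5′ end. Along the gene the mean signal peaked on either side of the Fth1-201 start, at 29.4 from 1800 to 1899 bp and at 26.3 from 2700 to 2799 bp. The enriched region was 4600 bp long and covered most of the gene. The 90th percentile was 3800 bp among the 9654 regions that hold a 5′ end, but this region began 1103 bp downstream of the 5′ end of Fth1. It was 3200 bp long with gaps of 200 bp and 2800 bp at 10 times the genome mean, so its rank depends on the joining of gaps and on the threshold.

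Tfrc, the transferrin receptor that takes up iron from the blood side, had the highest signal of the 9 at the 5′ end (ENSMUSG00000022797.16, chr16:32608920-32632794, plus strand). It was 5.23 and 3.23 in wild-type and 14.5 and 4.19 in ApcMin/+ mice, from 15, 30.9, 108 and 45.9 fragments. ApcMin/+ replicate 1 stood far above the rest and ApcMin/+ replicate 2 lay between the wild-type libraries. The region was 3000 bp long, from -719 to 2280 bp relative to the 5′ end, and in all 4 libraries the 1000 bp downstream held more signal than the 1000 bp upstream.

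Both genes of iron export had a mean signal over 2 at the 5′ end, but the window of Heph also holds the start of another gene. Slc40a1 (ENSMUSG00000025993.10, chr1:45908068-45926523, minus strand) had a signal of 2.09 and 2.96 in wild-type and 8.88 and 3.53 in ApcMin/+ mice, from 5.99, 28.4, 65.8 and 38.6 fragments. The groups did not overlap, but the nearest values, 2.96 and 3.53, rest on 28.4 and 38.6 fragments. Between 69.3% and 95.7% of this signal lay from 300 to 899 bp downstream of the 5′ end, before the start of Slc40a1-201. The mean was highest from 700 to 799 bp, a bin that held 27.5% to 52.9% of the signal of each library and where the values were 22.2 and 16.3 in wild-type and 51.6 and 20.4 in ApcMin/+ mice. In that bin ApcMin/+ replicate 2 lay between the wild-type libraries. With the stricter threshold the region shrank from 1400 bp to 600 bp. At the 5′ end of Heph (ENSMUSG00000031209.14, chrX:96455359-96574485, plus strand) the signal was 3.49 and 1.55 in wild-type and 10.9 and 2.84 in ApcMin/+ mice. The groups overlapped there, whereas at the start of Heph-202, 1014 bp downstream, the values of 3.99, 2.43, 22.0 and 4.28 in the same order did not overlap. They rest on 11.4, 23.3, 163 and 46.9 fragments, which do not resolve the order of 3.99 and 4.28. Hsf3, a heat shock factor gene on the other strand, begins 79 bp from that start, and 935 bp from the 5′ end of Heph, so the signal in either window cannot be assigned to Heph.

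Among the calcium genes only the pump was marked. Trpv6 (ENSMUSG00000029868.13, chr6:41620624-41636405, minus strand) had a signal of 0.697 and 1.18 in wild-type and 0 and 0.624 in ApcMin/+ mice, from 2.0, 11.3, 0 and 6.83 fragments. Both ApcMin/+ libraries were below both wild-type libraries, but the lower wild-type value rests on about 2 fragments, and the count of 0 allows a signal of up to 0.405. S100g (ENSMUSG00000040808.4, chrX:162961992-162964599, minus strand) had 0 and 0.104 in wild-type and 0.119 and 0.424 in ApcMin/+ mice, from at most 4.64 fragments in any library. Although both ApcMin/+ libraries were above both wild-type libraries, the count of 0 in wild-type replicate 1 allows a signal of up to 1.05, so no difference was detectable at this depth. Along the first 6000 bp of S100g no bin of 100 bp exceeded a mean of 0.951, and no enriched region was found at the gene.

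Atp2b1 (ENSMUSG00000019943.10, chr10:98914406-99026143, plus strand) had a signal of 3.09 and 2.11 in wild-type and 7.03 and 2.47 in ApcMin/+ mice at the 5′ end, from 8.85, 20.2, 52.1 and 27.1 fragments. The groups overlapped. Its mark was split, with 1 maximum upstream, from -400 to -301 bp, at a mean of 18.4 and another from 1400 to 1499 bp downstream at 13.7. The enriched region over both was 3000 bp long, and broke in 2 when only gaps of up to 200 bp were joined or at the stricter threshold.

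**Figure D2:**
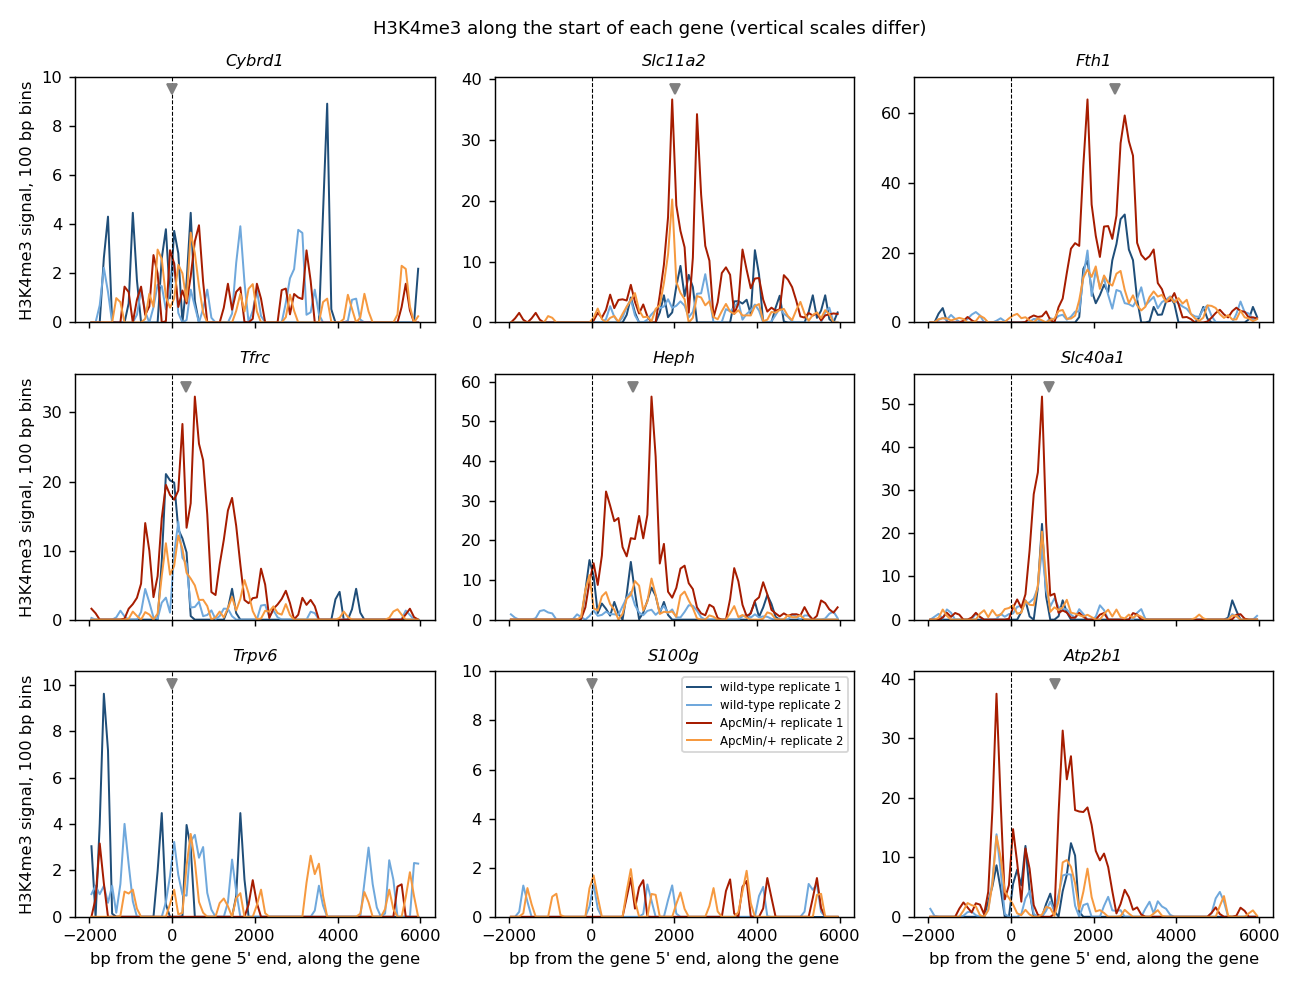
H3K4me3 signal in bins of 100 bp (y axis, scale differs between panels) from 2000 bp before to 6000 bp after the 5′ end of each gene (x axis, dashed line at 0), 1 line per library, with the start of highest signal marked by a grey triangle. The mark of Fth1 and Slc11a2 begins well downstream of the 5′ end, that of Slc40a1 lies mostly from 300 to 899 bp downstream with its maximum from 700 to 799 bp, and that of Atp2b1 is split. At Cybrd1, Trpv6 and S100g no bin exceeds a mean of 3.10 over the libraries.

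By level at the start with the highest signal, the order of the means over the 4 libraries was Fth1 at 15.5, Heph at 8.19, Tfrc at 6.97, Atp2b1 at 5.13, Slc40a1 at 4.86, Slc11a2 at 4.85, Cybrd1 at 1.16, Trpv6 at 0.626 and S100g at 0.162. Fth1 exceeded Heph, Tfrc exceeded Atp2b1 and Slc11a2 exceeded Cybrd1 in all 4 libraries. Heph and Tfrc, Atp2b1 and Slc40a1, and Slc40a1 and Slc11a2 each changed places between libraries, with the upper gene higher in 2 of 4, and these neighbours in the order did not differ beyond their spread. Cybrd1 exceeded Trpv6, and Trpv6 exceeded S100g, in 3 of 4 libraries. The windows have equal length, so levels can be set side by side, but each window covers whatever other starts lie in it.

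**Figure D3:**
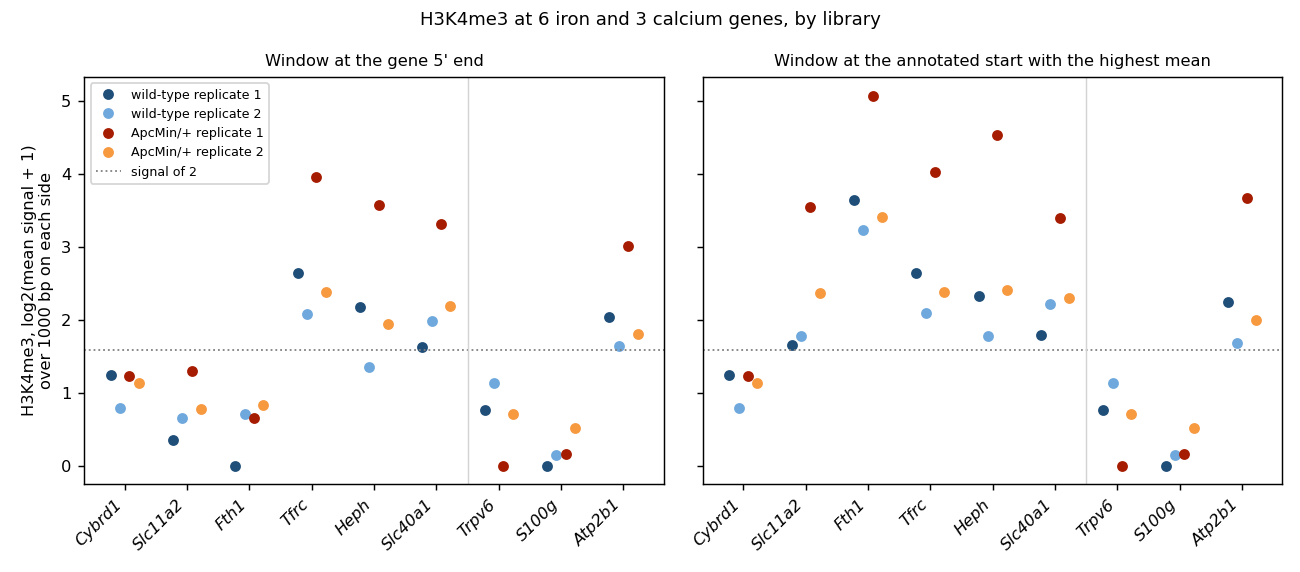
H3K4me3 signal of each gene in each library, as log2(mean signal + 1) over 1000 bp on each side (y axis), at the gene 5′ end (left) and at the annotated start with the highest mean (right), with a dotted line at a signal of 2 and a vertical line between iron and calcium genes. Fth1 and Slc11a2 rise above the dotted line on the right alone, ApcMin/+ replicate 1 is the highest library at every marked gene, and Cybrd1, Trpv6 and S100g stay below the line in both panels.

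The comparison of ApcMin/+ with wild-type mice was made with limma on log2(signal + 1) over every promoter whose mean signal reached 2, with Benjamini-Hochberg adjustment over all of them. At the 5′ end the differences, ApcMin/+ minus wild-type, were 1.00 at Heph (standard error 0.84), 0.93 at Slc40a1 (0.85), 0.81 at Tfrc (1.06) and 0.57 at Atp2b1 (0.79), each with an adjusted p of 0.683 in limma. Thus 0 of the 4 tested genes passed in either direction, where 0% of the 9930 tested promoters were called higher and 0% lower, and 0 of the 4 had an unadjusted p under 0.05, compared with 132 of all tested promoters. All 4 differences were near the median of 0.85 over all tested promoters. The median over the 9 genes, tested or not, was 0.53, beside 0.35 over all promoters.

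At the start with the highest signal, where 10796 genes were tested, the differences were 1.41 at Heph (standard error 1.06), 1.23 at Slc11a2 (0.88), 0.87 at Atp2b1 (0.90), 0.84 at Slc40a1 (0.91), 0.83 at Tfrc (1.07) and 0.81 at Fth1 (1.29). None passed the threshold (limma, adjusted p = 0.682 for each), and the standard errors were of the size of the differences. At the 5′ end, both ApcMin/+ libraries exceeded both wild-type libraries at 3 of the 9 genes, Slc11a2, Slc40a1 and S100g, where the share over all promoters was 26.0%. At Slc11a2 and S100g this order is not resolved at the depth of wild-type replicate 1. They were below both at 1, Trpv6, where the share was 7.17%. At the start with the highest signal the counts were 4 of 9, with Heph added, and 1 of 9, beside 25.8% and 7.88% over all genes. At Slc40a1 and Heph the nearest values of the groups lay close, and their order was not tested. With 9 genes, a distance of 1 or 2 genes from the background says nothing about them.

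Most of the difference at the marked genes came with ApcMin/+ replicate 1. In this library 43.2% of the signal lay in enriched regions, compared with 11.9% to 22.6% in the other 3, and its median tested promoter held 97.7 fragments, compared with 13.0 to 45.7. Without it, the differences at the start with the highest signal were -0.02 at Fth1, 0.01 at Tfrc, 0.04 at Atp2b1, 0.29 at Slc40a1, 0.35 at Heph and 0.64 at Slc11a2. With ApcMin/+ replicate 2 left out instead, limma called 5 of the 6 tested genes higher, with Fth1 the exception at an adjusted p of 0.169, where 65.9% of all tested genes were called higher. At the 5′ end it called all 4 tested genes, where the share was 65.2%. That fit assumes that the lone ApcMin/+ library varies as the wild-type libraries do. After centring the libraries on their median promoters, the differences were 0.53 at Heph, 0.35 at Slc11a2, -0.02 at Atp2b1, -0.05 at Slc40a1, -0.06 at Tfrc and -0.08 at Fth1. Limma then called 0 of these 6, and 0 at an unadjusted p under 0.05, where 0.0463% of all genes tested were higher and 0.0741% lower. At the 5′ end centring also gave 0 of 4, where 0.0504% of promoters were higher and 0.0705% lower. At the start with the highest signal, Heph and Slc11a2 were thus the marked genes with the largest differences under these settings. Both share their window with the start of another gene. Their standard errors there after centring were 0.29 and 0.35. At the 5′ end the centred differences were 0.15 at Heph and -0.32 at Slc11a2, which was not tested there, so this order depends on the start.

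**Figure D4:**
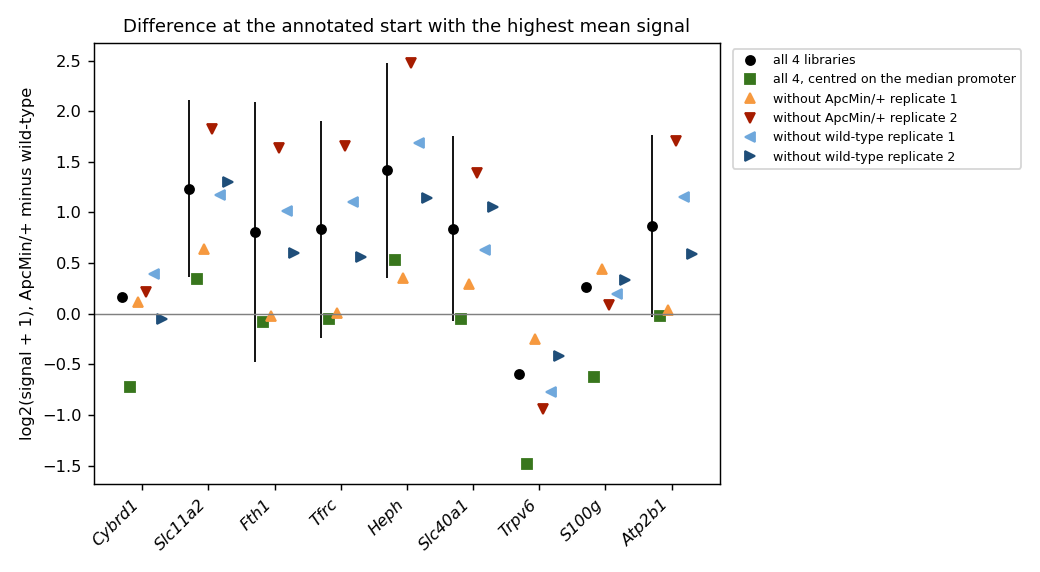
Difference in log2(signal + 1), ApcMin/+ minus wild-type (y axis), at the start with the highest mean signal of each gene, with all 4 libraries (circles, bars are the limma standard error, drawn for the 6 tested genes), after centring on the median promoter (squares) and with each library left out in turn (triangles). The differences at Fth1, Tfrc and Atp2b1 fall to between -0.02 and 0.04 without ApcMin/+ replicate 1, and those at Heph and Slc11a2 stay above 0 in all settings drawn.

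The remaining genes of these pathways were examined as 3 lists. Of 30 other iron genes, 17 had a mean signal of at least 2 at the 5′ end, and limma called 0 higher and 0 lower, with 1 at an unadjusted p under 0.05. Their median difference was 0.83, beside 0.85 over all tested promoters. Of the 17 differences 16 were above 0, as were 9850 of the 9930 over all tested promoters. The largest difference was 1.56 at Slc39a8, a metal transporter that also carries iron. Its signal was 0.439 and 0.940 in wild-type and 5.98 and 2.47 in ApcMin/+ mice. It thus reached a mean of 2 only through the ApcMin/+ libraries. Its value in wild-type replicate 1 lay under the 1.05 that 3 fragments give there. The lowest were 0.33 at Flvcr1, a heme exporter, and -0.02 at Slc46a1, the folate transporter of the proximal intestine that is also known to carry heme. At Slc46a1 the signal was 4.78 and 4.49 in wild-type and 5.52 and 3.75 in ApcMin/+ mice, and the difference relative to the median promoter was -0.87 (limma, adjusted p = 0.946).

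Of 8 genes of the hypoxia-inducible factor axis, 7 were tested, 0 were called in either direction and 0 had an unadjusted p under 0.05, with a median difference of 0.84. Epas1, which encodes the factor that acts on intestinal iron genes, had 4.12 and 3.20 in wild-type and 14.7 and 3.37 in ApcMin/+ mice, a difference of 0.84 (standard error 1.00, limma, adjusted p = 0.683). The differences ranged from 0.41 at Vhl, whose product marks the factors for degradation, and 0.70 at Hif1an, an asparagine hydroxylase, to 1.03 at Arnt, their partner, and 1.15 at Egln2, a prolyl hydroxylase. Of 25 other calcium and vitamin D genes, 14 were tested, 0 were called in either direction and 0 had an unadjusted p under 0.05. All 14 differences were above 0, as were 9850 of 9930 over all tested promoters, and their median was 0.84. They ranged from 0.50 at Anxa2, an annexin, to 1.14 at Orai1 and 1.20 at Stim1, the channel and the sensor of store-operated calcium entry. The medians of the 3 lists and that of all tested promoters differed by less than 0.02.

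As a check of the tissue, 14 of 16 enterocyte markers reached a mean signal of 2 at the 5′ end, led by Vil1 at 14.2, and so did 5 of 10 markers of the proximal small intestine, led by Fabp1 at 7.90, and 3 of 9 of the distal, led by Osr2 at 12.3. No marker on the lists for immune cells (15), erythroid cells (10), mesenchyme (10) or endothelium (8) did at the 5′ end, the highest being Cd3e at 1.31 among the immune, Vim at 1.77 among the mesenchymal and Cldn5 at 1.17 among the endothelial markers. At the start with the highest signal, 1 immune, 1 mesenchymal and 1 endothelial marker did, namely Coro1a at 2.75, Vim at 2.55 and Esam at 3.43, and 0 of the erythroid markers. Of 8 markers of crypt and stem cells, 5 reached 2 at the 5′ end and 6 at the start with the highest signal, led at the 5′ end by the proliferation gene Mki67 at 8.11 and by Sox9 at 7.70, whereas Lgr5, the stem cell receptor, had 1.22 and 1.34. Their summed signal at the 5′ end was 19.4 and 12.15 in wild-type and 53.0 and 21.04 in ApcMin/+ mice. The median difference of the 5 tested crypt markers was 0.91, beside 0.85 over all tested promoters. Relative to the median promoter 3 of these crypt markers were above 0. The part of crypt cells in the values at the iron and calcium genes was not tested. The proximal markers had a median difference of 0.45, with 0 of the 5 tested called (limma). Relative to the median promoter 0 of these 5 were above 0, compared with 4849 of all 9930 tested promoters. Fabp1 was at -0.005. Lct, Fabp1 and Apoa4 are also on the enterocyte list, where 8 of 14 tested were above 0. The summed signal of the 10 proximal markers was 34.9 and 21 in wild-type and 65.7 and 24.5 in ApcMin/+ mice, and that of the 9 distal markers was 23.8, 15.2, 65.1 and 20.1 in the same order. Where along the intestine the cells of each mouse were taken is not given in the sources used here, and its part in the values at the iron and calcium genes was not tested.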

How the data were processed

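CUT&RUN for H3K4me3 was analysed in villus cells of 2 wild-type and 2 ApcMin/+ mice, grouped by their labels. According to the methods, reads were trimmed and aligned to mm10 (Bowtie2) by the authors, duplicates (Picard) and reads with a MAPQ under 10 were removed, and fragments of 150 to 500 bp were kept. The deposited values are signal, the coverage per base from HOMER, scaled by the authors to 10000000 tags and to fragments of 100 bp, without subtraction of a control. Since the total is fixed, a change shared by the whole genome cannot be seen. Depth was 1430000 and 4790000 tags in wild-type and 3700000 and 5470000 in ApcMin/+ replicates 1 and 2. The number of fragments in a window follows from its summed signal and the signal that a single tag adds to the track, and floors cover counting error only.

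Promoters whose mean signal reached 2 were tested with limma 3.58.1 (R 4.3.3, trend, pseudocount 1). The fit was run on simulated data beforehand. Those data held no difference in enrichment between libraries such as the one seen here, so they do not show the power of the fit on these libraries. Each group holds 2 mice, so an exact permutation test cannot go below 0.333. Enriched regions are bins of 100 bp at 5 times the genome mean of the averaged tracks, joined over gaps of 500 bp, of at least 300 bp, and background lies outside them and over 5000 bp from any 5′ end. Named genes are the 9 genes, from each pathway list the 2 with the highest and the 2 with the lowest difference, from each marker list the one with the highest signal, and neighbours within 2000 bp; Epas1, Sox9, Lgr5, Coro1a and Esam were added after their values were seen. Some genes that this rule selects are not reported here. The genes and lists were chosen with earlier results of these data known. Other scalings, windows, starts, filters, pseudocounts, a replicate block and leaving out each library were tried. Other steps used Python 3.11.15, numpy 2.4.6 and pandas 2.3.3.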

Additional observations from a re-analysis of the deposited data

How the results depend on the processing

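Under 25 alternatives, 0 of the 9 genes passed the threshold except without ApcMin/+ replicate 2, when limma called 4 at the 5′ end and 5 at the start with the highest signal, and 25 of 38 and 29 of 43 tested genes of the 3 pathway lists, where the shares over all tested genes were 65.2% and 65.9%. The number whose ApcMin/+ libraries both exceeded both wild-type libraries, 3 at first, was 0 after centring (5.96% of all promoters, from 26.0%), 5 within 2000 bp (26.9%) and from 4 to 7 with a library left out (36.7% to 58.3%). It was 1 with centring and a library left out (13.2% to 21.9%), 1 with centring at the start with the highest signal (6.07%), and from 4 to 8 at that start with a library left out (35.0% to 60.0%). The median difference over the 9 genes, 0.535 at first, was -0.319 after centring, 0.700 when scaled to background, 0.875 within 2000 bp, 0.833 at the start with the highest signal, 1.14 with a pseudocount of 0.1, 0.163 with a pseudocount of 5 and from 0.184 to 0.797 with a library left out. It was -0.055 with centring at the start with the highest signal, from 0.115 to 1.639 there with a library left out (1.015 without wild-type replicate 1), and from -0.783 to 0.057 with centring and a library left out, at -0.687 and -0.102 without the wild-type and 0.057 and -0.783 without the ApcMin/+ replicates 1 and 2. The settings at the start with the highest signal that also centre or leave out a library were chosen after seeing the data.

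Of the tested genes, Tfrc and Atp2b1 changed sign, to -0.046 and -0.288 after centring and -0.064 and -0.234 with quantile normalization, and at the start with the highest signal with centring Tfrc, Atp2b1 and Slc40a1 had -0.055, -0.018 and -0.048. With centring and a library left out, the values below 0 were -0.321 and -0.084 at Slc40a1, -0.039 at Heph, -0.102 and -0.110 at Tfrc and -0.314, -0.263, -0.166 and -0.410 at Atp2b1, and without centring Atp2b1 ranged from -0.039 without ApcMin/+ replicate 1 to 1.170 without ApcMin/+ replicate 2. Centring lowers all differences by about the median of 0.85, which at S100g exceeds the whole level in each library. The width of the enriched region moved at a threshold of 10 times the genome mean to 1200 bp at Slc11a2, 600 bp at Slc40a1 and 2800 bp at Fth1, and to 0 over the highest start at Cybrd1 and Atp2b1. With gaps of 200 bp it was 0 at Cybrd1 and 1500 bp at Atp2b1. Quantile normalization was applied to tested promoters alone, so it gives no count or median over the 9.

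With the replicate block, 0 of the 4 tested genes passed and the median difference was 0.535, with an adjusted p of 0.533 in limma for each. With the replicate block and centring, the median was -0.319 and the count of non-overlapping genes 0. The deviations of the libraries with the same number had a correlation of 0.196 over tested promoters, but with 2 pairs the numbers are shared names only. Depth limits the unmarked genes most, since 3 fragments equal a signal of 0.274 to 1.05.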

Other observations

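Some regulators of these routes also appeared unmarked at the outermost 5′ end and marked at another annotated start, and they are named here after their values were seen. The 5′ end of Vdr, which encodes the vitamin D receptor, had a mean signal of 0.311, whereas its start with the highest signal had 9.30 and 3.92 in wild-type and 31.5 and 5.55 in ApcMin/+ replicates 1 and 2. Hif1a, which encodes a hypoxia-inducible factor, had 0.220 at the 5′ end and a mean of 8.56 at the other start. Abcg2, a urate and porphyrin exporter, had 0.104 and 5.74 in this way, Fbxl5, the iron-sensing subunit of a ubiquitin ligase, had 1.06 and 4.87 and Steap3, a ferrireductase, had 0.263 and 2.90. Of all promoters with a mean signal under 2 at the 5′ end, 7.21% had another start that reached 2. Slc25a37, a mitochondrial iron importer, was listed at 0 in all 4 libraries at every start, and Trpv5, the renal relative of Trpv6, had a mean of 0.685.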
